A study of Mus musculus with 28 samples.

Results

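The glycolysis and gluconeogenesis genes described here are 34 genes taken by name out of the 17752 gene symbols of the liver table, and all 34 also have a row in both tables of macrophage cultures. Counted by role, they are 3 glucose transporters, 3 hexokinases, 4 genes for glucose-6-phosphate isomerase and phosphofructokinase, and 4 PFKFB genes. A further 11 run from aldolase to pyruvate kinase, 4 encode lactate dehydrogenases and monocarboxylate transporters, 1 is a pyruvate dehydrogenase kinase, and 4 belong to gluconeogenesis.

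Messenger RNA was sequenced from whole livers of male mice on a diet without methionine and choline, given for 4 weeks from 8 weeks of age, and from macrophages grown out of bone marrow. The 16 livers form 4 groups of 4. MDKO livers come from mice with a macrophage deletion of both NFATc3 and ASK1, ASK1-MKO livers from mice with a deletion of ASK1, NFATc3-MKO livers from mice with a deletion of NFATc3, and Lyz2-Cre livers from the controls. The calcium-calcineurin pathway switches on the transcription factor NFATc3, and ASK1 is the stress-activated kinase that Map3k5 encodes. Cre driven from Lyz2 acts in myeloid cells, so the hepatocytes that make up most of a whole liver keep both genes by design, and the controls carry the Cre too. The 12 cultures are bone marrow-derived macrophages (BMDMs) grown for 7 days with 30% L929-conditioned medium. They are NFATc3-MKI and ASK1-MKI, macrophage knock-ins of each gene, and a separate control set for each whose genotype is given as Lyz2-Cre, with 3 cultures in each of the 4 groups.

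Glycolysis splits glucose into pyruvate, and lactate dehydrogenase turns pyruvate into lactate that monocarboxylate transporters carry out of the cell. The liver runs the reverse route, gluconeogenesis, in fasting: pyruvate carboxylase, PEPCK, fructose-1,6-bisphosphatase and glucose-6-phosphatase bypass the steps that glycolysis cannot reverse. Macrophages instead consume glucose, and many of their glycolytic genes are known targets of the hypoxia-inducible factor HIF-1, which the prolyl hydroxylases Egln1 and Egln3 hold down when oxygen is present.

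The shallowest liver library, MDKO replicate 3, held 8912117 counts and the other 15 held between 20601168 and 30834547. Libraries of the NFATc3-MKI set held 7693464 to 9398163 counts, and those of the ASK1-MKI set 16051951 to 18728508. Nothing says whether libraries of a group came from separate animals or cultures, so p-values measure the spread between these libraries, which may be technical. The RNA of the targeted genes did not separate the groups as their labels would. In livers it cannot check the deletions, since the hepatocytes keep both genes by design. Nfatc3 stood at 19.6 to 31.5 CPM (counts scaled to a common library size with edgeR's TMM factors) in livers labelled NFATc3-MKO and at 30.6 to 39.8 CPM in Lyz2-Cre livers. Map3k5 stood at 41.7 to 55.1 CPM in livers labelled ASK1-MKO and at 27.7 to 32.7 CPM in Lyz2-Cre livers, higher where the label gives a deletion. In MDKO livers Nfatc3 was at 29.8 to 39.8 CPM and Map3k5 at 28.2 to 32.4 CPM. Neither knock-in had more RNA of its gene, with Nfatc3 at 76.3 to 90.4 CPM in cultures labelled NFATc3-MKI against 90.8 to 105 CPM in their controls, and Map3k5 at 26.7 to 27.3 CPM in cultures labelled ASK1-MKI against 30 to 30.3 CPM. The 6 macrophage markers summed to 34800 to 36800 CPM in ASK1-MKI cultures and 33000 to 35400 CPM in their controls, but only to 2190 to 2400 CPM in NFATc3-MKI cultures and 1590 to 1700 CPM in theirs, where Mertk averaged 0.0757 and 0.0831 CPM. Of the markers printed, the macrophage label of the NFATc3-MKI set rests on Cd68 (945 CPM in NFATc3-MKI and 757 CPM in control cultures) and Csf1r (375 and 279 CPM) more than on Adgre1 (33.9 and 31.3 CPM). Lyz2, the gene that drives the Cre, and Cd14 are also in these sums and so lie below them.

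The isoenzymes of the control livers and control cultures were largely different. Levels of different genes are compared per length, in TPM (transcript abundance scaled to a common total, from exon length). In Lyz2-Cre livers the hepatic transporter gene Slc2a2 stood at 216 ± 15 TPM (SD, n = 4) and the broadly used Slc2a1 at 4.79 ± 1.22 TPM. The liver pyruvate kinase gene Pklr stood there at 194 ± 19.6 TPM, against 10.6 ± 5.61 TPM for Pkm, the form of most other tissues. The gluconeogenic genes Fbp1 (fructose-1,6-bisphosphatase), Pck1 (cytosolic PEPCK), G6pc (glucose-6-phosphatase) and Pcx (pyruvate carboxylase) averaged 886 ± 203, 622 ± 255, 286 ± 116 and 176 ± 15.2 TPM in these livers. Hk1, Hk2 and Hk3 were between 0.867 and 2.04 TPM.

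In the control cultures Pkm reached 3820 ± 96.8 TPM in the NFATc3-MKI set and 1360 ± 6.69 TPM in the ASK1-MKI set (n = 3 each). Slc2a2 and Pklr had no count in any of the 12 cultures, which allows levels of up to 0.0588 CPM over the NFATc3-MKI set and 0.0289 CPM over the ASK1-MKI set (3 counts, counting error only). G6pc, Pck1 and Fbp1 had at most 4 counts in a culture. The lactate dehydrogenase B gene Ldhb separated the culture sets: it was at 62.5 ± 1.75 TPM in the controls of ASK1-MKI and had 1 count in the whole NFATc3-MKI set. The culture tables were normalised separately, so levels across them are set side by side and not tested. Gapdh was at 938 ± 54.7 TPM in Lyz2-Cre livers but at 125 ± 3.98 and 234 ± 14.5 TPM in the control cultures of NFATc3-MKI and ASK1-MKI, below Pgk1, the next enzyme of the pathway, at 2670 ± 37.4 and 1620 ± 8.78 TPM. Gapdh, Aldoa, Ldha, Pgk1 and Pgam1 have pseudogene copies in the mouse genome that could take part of their reads, and their levels are uncertain to that extent. Eno1 has the near-identical copy Eno1b, which averaged 527 CPM in NFATc3-MKI cultures and 537 CPM in their controls, 14.3 CPM in ASK1-MKI cultures and 17.2 CPM in theirs, and at most 0.941 CPM in a liver.

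**Figure D1:**
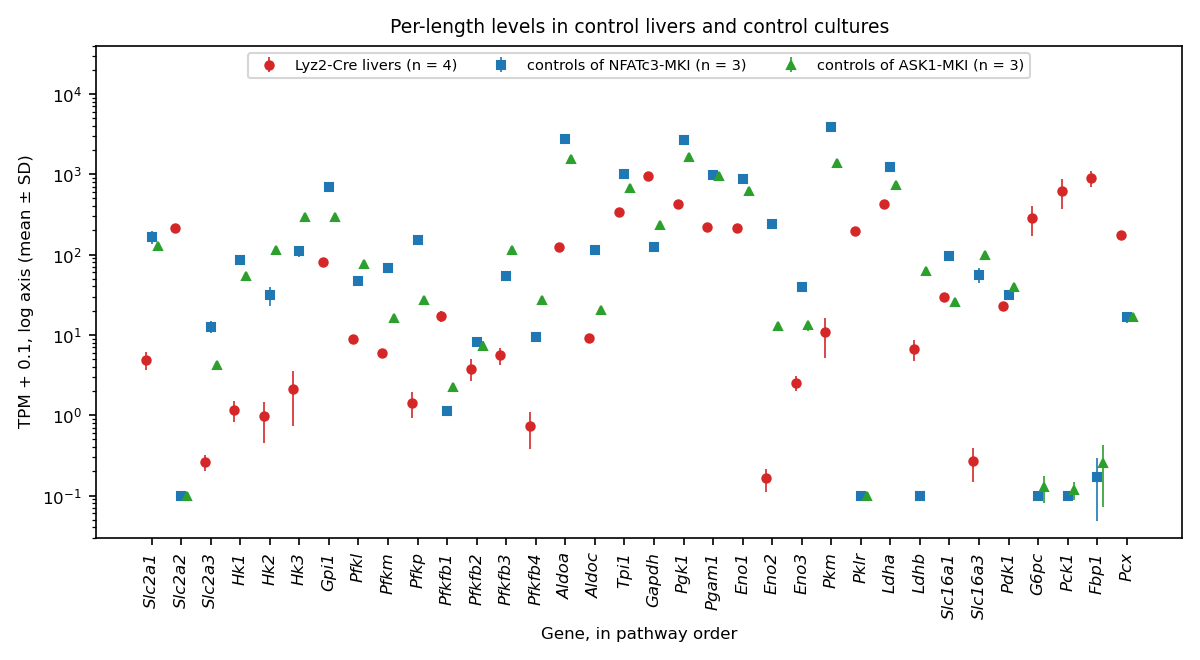
Mean per-length level (TPM + 0.1, log axis, ± SD) of the 34 genes in Lyz2-Cre livers (n = 4) and in the control cultures of NFATc3-MKI and ASK1-MKI (n = 3 each). Slc2a2, Pklr, G6pc, Pck1 and Fbp1 are high in livers and at the bottom of the axis in cultures, and Pkm runs the other way.

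Whether losing NFATc3 in macrophages goes with a change of these genes in the liver was asked first. Fbp1, Pfkfb1 and Eno1 fell in NFATc3-MKO livers, and none of the 34 rose. These are 3 of the 33 members tested (Eno2 was too low in liver to test), where 8.45% of all genes were called, 3.77% higher and 4.67% lower (edgeR, Benjamini-Hochberg adjusted p under 0.05 over all 13309 genes tested). The share is near that of all genes. The median log2 change was −0.12 over the members and 0.03 over all genes tested. Of the 33 members, 4 had groups that did not overlap, where 12.8% of all genes did not.

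Fbp1 (ENSMUSG00000069805, chromosome 13, 62864753 to 62888282, minus strand, mm10) stood at 448, 245, 335 and 429 CPM in NFATc3-MKO livers and at 1020, 427, 797 and 833 CPM in Lyz2-Cre livers. The groups overlapped only through the lowest control, Lyz2-Cre replicate 2. The log2 change was −1.08 ± 0.25 (SE, edgeR adjusted p = 0.0158). Pfkfb1, the liver form of the bifunctional enzyme that makes and breaks down the glycolytic activator fructose-2,6-bisphosphate, lies on chromosome X (150588229 to 150643878, plus strand, ENSMUSG00000025271). It had 17.4, 18, 14.6 and 25.4 CPM in NFATc3-MKO livers, against 37.2, 27, 41.3 and 31.7 CPM in Lyz2-Cre livers. No NFATc3-MKO liver reached the lowest control (log2 change −0.86 ± 0.18, edgeR adjusted p = 0.0114). The enolase gene Eno1 had 392, 325, 422 and 454 CPM in NFATc3-MKO livers and 690, 453, 642 and 542 CPM in Lyz2-Cre livers, where the highest NFATc3-MKO liver and the lowest control were level (log2 change −0.55 ± 0.16, edgeR adjusted p = 0.0421). None of these 3 calls held when the fit used only the NFATc3-MKO and Lyz2-Cre livers (edgeR adjusted p of 0.0643 for Fbp1, 0.0576 for Pfkfb1 and 0.113 for Eno1). Leaving out Lyz2-Cre replicate 3 ended all 3 (0.0542, 0.0528 and 0.132), leaving out Lyz2-Cre replicate 4 ended Fbp1 (0.0511) and Eno1 (0.0792), and the call on Eno1 also needed Lyz2-Cre replicate 1 (0.11 without it) and NFATc3-MKO replicates 1 (0.0581), 2 (0.0944) and 3 (0.0673).

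The other gluconeogenic genes did not pass the test in NFATc3-MKO livers. G6pc had 95, 35.2, 62.6 and 345 CPM in NFATc3-MKO livers, against 199, 255, 421 and 484 CPM in Lyz2-Cre livers. Its first 3 NFATc3-MKO values lay below every control and the fourth did not (log2 change −1.34 ± 0.54, edgeR adjusted p = 0.126). The log2 change was −0.35 ± 0.14 for Pcx (edgeR adjusted p = 0.12) and 0.10 ± 0.34 for Pck1 (0.871). Slc2a1 had 13.5, 11.1, 13.5 and 9.69 CPM in NFATc3-MKO livers and 7.2, 9.52, 8.75 and 7.38 CPM in Lyz2-Cre livers. Every NFATc3-MKO liver was above every control, but the adjusted p was 0.0524 (edgeR, log2 change 0.54 ± 0.17).

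Of 46 genes tested from a list of 53 further pathway genes, 1 rose and 3 fell in the same livers, where 8.45% of all genes were called. The galactose enzyme gene Galm fell by 0.62 (edgeR adjusted p = 0.0326), and Bpgm, which makes 2,3-bisphosphoglycerate, rose by 0.58 (0.00973), both on the log2 scale. Among 26 regulators, Hnf4a, a nuclear receptor of hepatocytes, fell by 0.55 (0.00755) and Mlxipl, the gene of the glucose-sensing factor ChREBP, rose by 0.53 (0.035).

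Markers of other cells also differed in these livers. Neutrophil markers summed to 6.15 to 38.6 CPM in NFATc3-MKO livers and 2.01 to 8.63 CPM in Lyz2-Cre livers, with 2 of 3 tested markers called higher (S100a8 and S100a9, not Retnlg) and Ly6g, Mmp8 and Ngp too low to test. Markers of monocyte-derived or lipid-associated macrophages summed to 122 to 821 CPM in NFATc3-MKO livers and 88.6 to 245 CPM in Lyz2-Cre livers (1 of 6 called higher). Those of hepatocytes summed to 74800 to 114000 CPM and 100000 to 135000 CPM. The 1 of 6 hepatocyte markers called lower was Hnf4a, which is also on the list of regulators. Of the other lists, 2 of 5 Kupffer cell and 1 of 5 endothelial markers were called lower in NFATc3-MKO livers, and 2 of 6 stellate cell, 2 of 5 cholangiocyte and 2 of 4 B and plasma cell markers higher. NFATc3-MKO replicate 2 was at the high end for the myeloid markers and the low end for hepatocytes, and it also had the highest Hk3 (10.8 CPM), Pkm (65.9 CPM) and Slc16a3 (2.46 CPM) of all 16 livers. Their part in the values of the members was not tested, and in whole liver fewer cells of a type and less RNA per cell cannot be told apart.

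**Figure D2:**
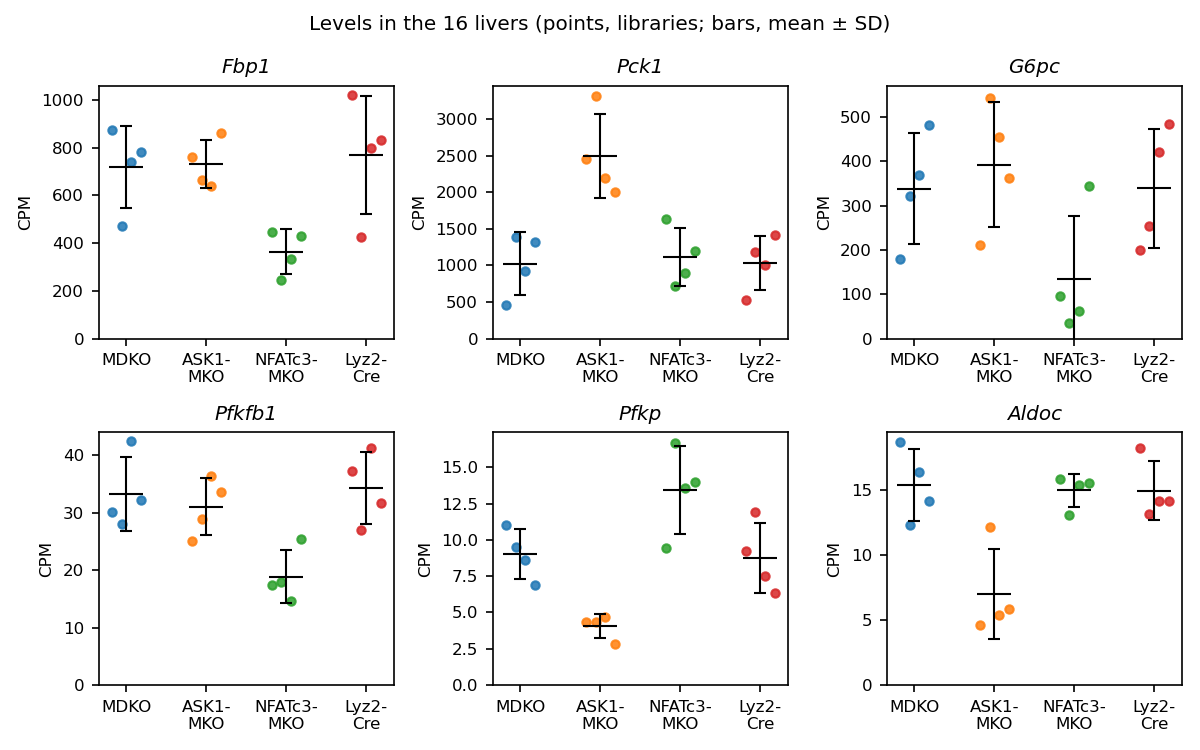
Level in CPM of Fbp1, Pck1, G6pc, Pfkfb1, Pfkp and Aldoc in each of the 16 livers (points), with mean ± SD (bars, n = 4), for MDKO, ASK1-MKO, NFATc3-MKO and Lyz2-Cre from left to right. Fbp1 and Pfkfb1 are low in NFATc3-MKO livers, Pck1 is high and Pfkp low in ASK1-MKO livers, and MDKO livers lie among the controls.

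In ASK1-MKO livers the gluconeogenic gene Pck1 rose, and Pfkp and Aldoc fell. The 3 calls are again close to the background, with 3 of 33 members called and 8.46% of all genes (1 member higher where 4.46% of genes were, and 2 lower where 4% were). Groups that did not overlap were found for 9 of the 33 members and 18.2% of all genes. Of these 9, 8 were lower in ASK1-MKO livers, and the share by direction was not computed over all genes. The median log2 change was −0.19 over the members and −0.03 over all genes tested.

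Pck1 (ENSMUSG00000027513, chromosome 2, 173153048 to 173159273, plus strand), the gene of the enzyme that commits oxaloacetate to glucose synthesis, had 2460, 3310, 2200 and 2010 CPM in ASK1-MKO livers, against 532, 1180, 1010 and 1410 CPM in Lyz2-Cre livers. Each ASK1-MKO liver stood above every control (log2 change 1.27 ± 0.34, edgeR adjusted p = 0.0281). Removing any of 4 livers ended the call, namely ASK1-MKO replicates 1 (0.0618) and 2 (0.0829) and Lyz2-Cre replicates 1 (0.0761) and 3 (0.078). Pck1 is known to respond to glucagon through cyclic AMP, and its promoter is shown because of that known response. It was searched on both strands for TGACGT, most of the cyclic AMP response element, which 7.51% of the 32851 RefSeq promoters of this length hold. It has 1, on the minus strand and starting 91 bases before the transcription start, and the capitals mark it (GRCm38.p6, chr2:173152823-173153122, plus strand, 250 bases before the start to 50 after it).
Pck1: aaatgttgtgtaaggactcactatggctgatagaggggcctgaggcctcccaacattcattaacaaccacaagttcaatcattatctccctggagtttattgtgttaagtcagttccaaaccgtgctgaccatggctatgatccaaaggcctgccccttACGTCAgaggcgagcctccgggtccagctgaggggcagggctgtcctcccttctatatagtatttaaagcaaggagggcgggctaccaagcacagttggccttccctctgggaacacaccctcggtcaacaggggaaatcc

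Pfkp, the platelet form of phosphofructokinase, had 4.35, 4.33, 4.69 and 2.84 CPM in ASK1-MKO livers and 9.21, 11.9, 7.48 and 6.34 CPM in Lyz2-Cre livers. Aldoc, an aldolase gene best known from brain, had 4.65, 12.2, 5.4 and 5.85 CPM in ASK1-MKO livers and 18.3, 13.2, 14.2 and 14.2 CPM in Lyz2-Cre livers. Neither gene's groups overlapped, although ASK1-MKO replicate 2 came close to the controls for Aldoc. The log2 changes were −1.10 ± 0.22 for Pfkp and −1.09 ± 0.24 for Aldoc (edgeR adjusted p of 0.00592 and 0.00938), and both calls held in every alternative run. Per length, both genes were below the listed isoenzymes in Lyz2-Cre livers. Pfkp was at 1.33 ± 0.498 TPM, Pfkm at 5.78 ± 0.588 TPM and Pfkl at 8.87 ± 0.584 TPM. Aldoc was at 9.17 ± 0.471 TPM and Aldoa at 124 ± 13.3 TPM. More abundant steps did not pass the test: Tpi1 had 357, 348, 308 and 364 CPM in ASK1-MKO livers, against 559, 381, 455 and 456 CPM in Lyz2-Cre livers, and Pgk1 had 358, 356, 370 and 358 CPM, against 523, 371, 518 and 491 CPM. The ASK1-MKO livers lay below every control for both, short of the threshold (log2 −0.43 ± 0.14, edgeR adjusted p = 0.0672 for Tpi1, and −0.40 ± 0.12, 0.0506 for Pgk1).

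Among the further pathway genes of these livers, Sds (serine dehydratase, which feeds serine to gluconeogenesis) rose to 156 ± 47.4 CPM in ASK1-MKO livers, against 65.7 ± 17.5 CPM in Lyz2-Cre livers (log2 change 1.25 ± 0.33, edgeR adjusted p = 0.0252), and Tigar and Gpt fell by 0.33 and 0.50. Of 26 regulators 4 rose, Mlxipl by 0.95, Crtc2 by 0.61, Hif1an by 0.51 and Epas1 by 0.51, where 4.46% of all genes rose. None of the 26 fell, where 4% of all genes did. The summed macrophage markers were at 141 to 197 CPM in ASK1-MKO livers and 128 to 365 CPM in Lyz2-Cre livers, with 0 of 6 called, and the pericentral hepatocyte markers at 7840 to 12300 CPM and 12300 to 16800 CPM, with 0 of 4 called. Erythroid markers summed to 74.8 to 129 CPM in ASK1-MKO livers and 147 to 211 CPM in Lyz2-Cre livers, with no overlap and 2 of 3 called lower. The 1 of 4 periportal hepatocyte markers called higher was Sds itself, which is on both lists. The part of these cell types in the values of Pck1, Pfkp and Aldoc was not tested.

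MDKO livers were compared with Lyz2-Cre livers to see what losing both genes goes with. No member was called, as was true of every gene in the table, so percent called was 0 and the count says nothing particular to these genes. The number of members with an unadjusted p under 0.05 was also 0, where 35 of all 13309 genes had one, and DESeq2 and limma's voom called 0 members as well. Log2 changes of the 33 members ran from −0.65 (Slc16a3, SE 0.64) to 0.13, and 0 of the 33 had groups that did not overlap, where 0.458% of all genes did. Pck1 had 453, 1390, 919 and 1320 CPM in MDKO livers, against 532, 1180, 1010 and 1410 CPM in Lyz2-Cre livers. The values of replicates with the same number lie close together, as they do for Fbp1, at 876, 473, 741 and 783 CPM in MDKO livers against 1020, 427, 797 and 833 CPM. Over all genes, same-numbered MDKO and Lyz2-Cre livers deviated from their group means together (correlations of 0.64, 0.60, 0.40 and 0.33). The chi-square of their counts per degree of freedom was 2.31 to 13.7, below the 11.1 to 62.8 found between MDKO livers and the 16.1 to 67.2 between Lyz2-Cre livers except at the edge of the ranges. A fit with the replicate number as a block also called 0 members.

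MDKO livers were also set against each single knockout. Against NFATc3-MKO livers, 4 of 33 members were called, where 7.35% of all genes were, 2 of them higher in MDKO livers (4.06% of genes) and 2 lower (3.29%). The log2 changes were 0.98 ± 0.25 for Fbp1, 0.81 ± 0.18 for Pfkfb1, −0.66 ± 0.17 for Slc2a1 and −2.01 ± 0.59 for Slc16a3. With only the MDKO and NFATc3-MKO livers in the fit no member was called. Without MDKO replicate 3 none of the 4 was called either (edgeR adjusted p from 0.0643 to 0.12). Fbp1 was also lost without NFATc3-MKO replicates 2 (0.0572) or 3 (0.0646) or MDKO replicate 4 (0.078), and Slc2a1 without NFATc3-MKO replicate 3 (0.0668) or MDKO replicate 4 (0.0889). Slc16a3 was lost without any of the 4 MDKO livers or without NFATc3-MKO replicates 2, 3 or 4 (0.057 to 0.153), and its log2 change was −1.27 without NFATc3-MKO replicate 2. In the same comparison 3 of 3 tested neutrophil, 2 of 6 monocyte-derived or lipid-associated macrophage, 2 of 6 stellate cell, 2 of 4 B and plasma cell and 1 of 5 cholangiocyte markers were called lower in MDKO livers, and 2 of 5 Kupffer cell, 1 of 5 endothelial and 1 of 6 hepatocyte markers higher. Their part in these values was not tested. Against ASK1-MKO livers, 3 of 33 were called, where 7.72% of all genes were, 2 of them higher in MDKO livers (3.46% of genes) and 1 lower (4.26%). The log2 changes were 1.15 ± 0.22 for Pfkp, 1.12 ± 0.24 for Aldoc and −1.29 ± 0.34 for Pck1. Pck1 was lost without ASK1-MKO replicates 1 (0.0637) or 2 (0.083) or MDKO replicates 1 (0.0622) or 3 (0.084). Here 1 of 3 erythroid markers was called higher and 1 of 4 periportal hepatocyte markers, a list that includes Sds, lower in MDKO livers. These comparisons share livers with the earlier ones and are not independent of them.

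Whether the double knockout matched the sum of the single ones was tested as an interaction, the change from Lyz2-Cre to MDKO livers minus the changes in both single knockouts. It was called for 7 of the 33 members, where 16.2% of all genes were called, 6 with a positive value (8.17% of genes) and 1 with a negative value (8%). The log2 values were 0.95 ± 0.26 for Pfkfb1, 1.12 ± 0.33 for Aldoc, 0.73 ± 0.20 for Tpi1, 0.69 ± 0.17 for Pgk1, 0.95 ± 0.22 for Eno1, 1.05 ± 0.35 for Fbp1 and −0.72 ± 0.24 for Slc2a1 (edgeR adjusted p from 0.00917 to 0.0477). Of 33 members the median was 0.42, against a median of about 0 over all genes. No member was called between MDKO and Lyz2-Cre livers, so the called values are mainly the single-knockout changes with the sign turned. The fit had no block for the replicate number, although same-numbered MDKO and Lyz2-Cre livers deviated together. Pfkfb1, Tpi1, Pgk1 and Eno1 held in every alternative run. Leaving out 1 liver ended the call on Fbp1 for 13 of 16 livers (all but Lyz2-Cre replicate 2, NFATc3-MKO replicate 1 and MDKO replicate 2, edgeR adjusted p from 0.05 to 0.0995), on Slc2a1 for 12 of 16 (all but Lyz2-Cre replicate 2, NFATc3-MKO replicate 4, ASK1-MKO replicate 4 and MDKO replicate 2, from 0.051 to 0.0943), and on Aldoc for 6 (Lyz2-Cre replicate 1, ASK1-MKO replicates 1, 3 and 4, and MDKO replicates 1 and 3, from 0.0536 to 0.0624).

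Set directly against ASK1-MKO livers, NFATc3-MKO livers had 6 members higher and 3 lower, 9 of 33 where 12.8% of all genes were called (7.15% higher and 5.61% lower). Pfkp differed most clearly, with 9.43, 16.7, 13.6 and 14 CPM in NFATc3-MKO livers, against 4.35, 4.33, 4.69 and 2.84 CPM in ASK1-MKO livers (log2 change 1.72 ± 0.22, edgeR adjusted p = 0.000161). Slc16a3, a lactate exporter gene used by glycolytic cells, was at 0.322, 2.46, 0.851 and 0.855 CPM in NFATc3-MKO livers and 0.227, 0.2, 0.136 and 0.119 CPM in ASK1-MKO livers (log2 change 2.67 ± 0.59). Its groups did not overlap, and both are close to the lowest levels the fit kept. Without NFATc3-MKO replicate 2 its log2 change was 1.93. Pkm, Hk1, Aldoc and Ldhb were higher in NFATc3-MKO livers, with log2 changes of 1.14, 0.76, 1.09 and 0.68. Fbp1, Pck1 and Pfkfb1 were lower, with log2 changes of −1.01, −1.17 and −0.71. Pfkp, Aldoc, Slc16a3 and Fbp1 held in every alternative that tested them, and the other 5 did not. Leaving out 1 liver ended the call on Pkm for 7 of 8 livers (all but NFATc3-MKO replicate 1, edgeR adjusted p from 0.0528 to 0.121), on Hk1 for 6 (NFATc3-MKO replicates 2 and 4 and each ASK1-MKO liver, 0.0705 to 0.152), and on Pck1 for 6 (NFATc3-MKO replicates 2, 3 and 4 and ASK1-MKO replicates 1, 2 and 3, 0.0535 to 0.103). It ended the call on Ldhb for 5 livers (NFATc3-MKO replicates 2 and 3 and ASK1-MKO replicates 1, 2 and 3, 0.0523 to 0.0762) and on Pfkfb1 for 2 (NFATc3-MKO replicate 3 and ASK1-MKO replicate 3, 0.0565 and 0.0574). Without NFATc3-MKO replicate 2 the log2 change was 0.64 for Pkm and 0.46 for Hk1.

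The markers moved with this comparison. Of the markers of monocyte-derived or lipid-associated macrophages 4 of 6 were called higher in NFATc3-MKO livers, as were 3 of 3 tested neutrophil markers, whose sum was 6.15 to 38.6 CPM in NFATc3-MKO livers and 1.07 to 3.4 CPM in ASK1-MKO livers. Erythroid markers were called higher for 3 of 3, cholangiocyte for 3 of 5, stellate cell for 2 of 6, B and plasma cell for 2 of 4, macrophage for 1 of 6 and T cell for 1 of 4, while 1 of 5 Kupffer cell, 1 of 6 hepatocyte and 1 of 4 periportal hepatocyte markers were called lower. How far these cells account for the values of Pkm, Hk1 and Slc16a3 was not tested.

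In the cultures most members that moved were lower in the knock-in. In NFATc3-MKI cultures 11 of 28 tested members fell, where 16.8% of all 13363 genes fell, and 1, Hk3, rose, where 16.5% of all genes rose (33.3% were called in either direction). In ASK1-MKI cultures 21 of 29 tested members fell, where 24.5% of all 11380 genes fell, and 3 rose, Hk3, Pfkfb4 and Ldhb, where 24.6% of all genes rose (49.1% in either direction). The median log2 change of the tested members was −0.14 in NFATc3-MKI and −0.40 in ASK1-MKI cultures, against medians of 0.00 over all genes in each table. Groups did not overlap for 15 of 28 members (45.8% of all genes) and 26 of 29 (54.5%). With a limit of at least 0.5 on the log2 scale, chosen after the values were seen, 8 of 28 members fell in NFATc3-MKI cultures (7.98% of all genes) and 1 rose (8.9%), and 11 of 29 fell in ASK1-MKI cultures (9.22%) and 0 rose (3.74%). The 10 genes lower in both were Gpi1, Pfkfb2, Pfkfb3, Aldoa, Aldoc, Pgk1, Pgam1, Eno2, Pdk1 and Pcx, which is 10 of the 11 that fell in NFATc3-MKI cultures and 10 of the 21 in ASK1-MKI cultures. Members too low to test were Slc2a2, Pklr, G6pc, Pck1 and Fbp1 in both sets and Ldhb in the NFATc3-MKI set.

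**Figure D3:**
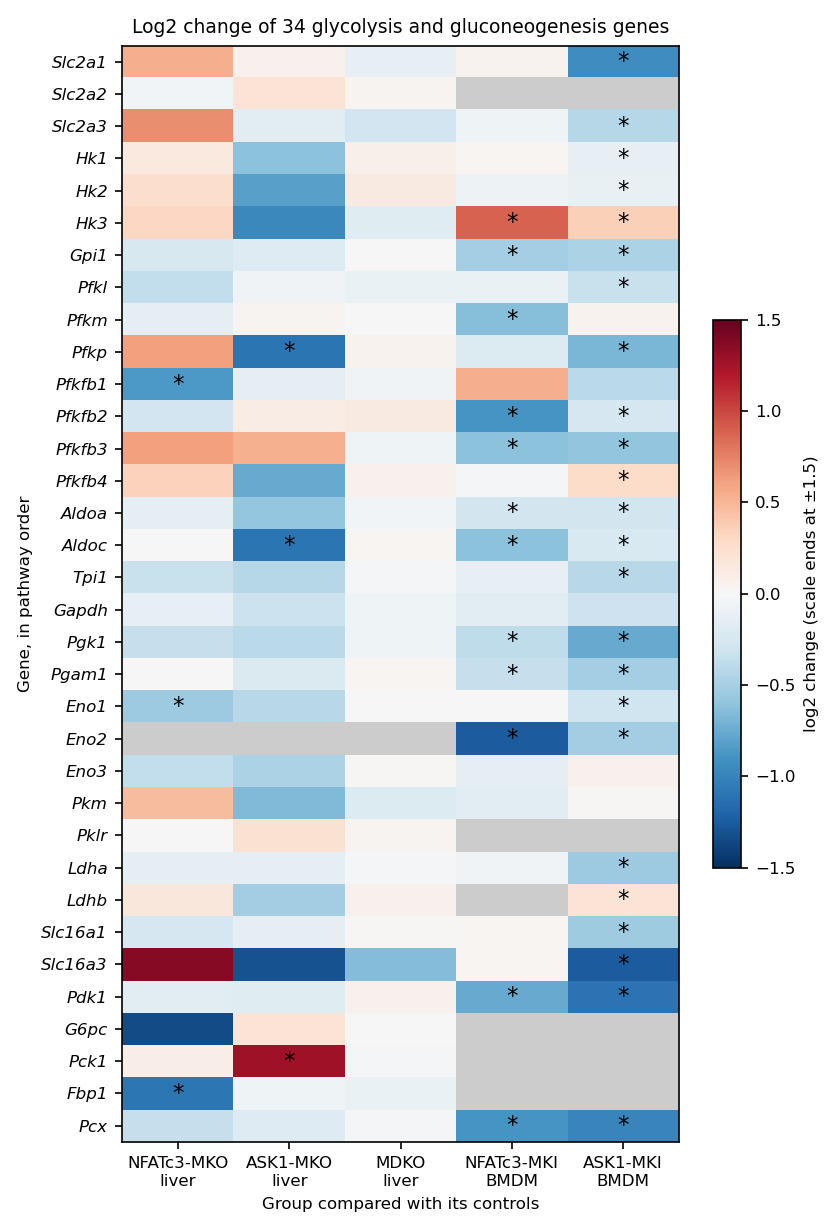
Log2 change of each of the 34 genes (rows, in pathway order) in 5 comparisons with controls (columns); blue is lower and red higher in the deleted or knock-in group, grey was not tested, and an asterisk marks edgeR adjusted p under 0.05. The ASK1-MKI column holds 24 asterisks, 21 of them on blue, and the MDKO column none.

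The genes of glucose uptake and of its first phosphorylation differed between the sets in what was called. In ASK1-MKI cultures the glucose transporter gene Slc2a1 had 69.4, 71.4 and 68.2 CPM, against 131, 127 and 139 CPM in their controls, a fold of 0.527 with no overlap (log2 change −0.93 ± 0.04, edgeR adjusted p = 4.51e-48). Slc2a3, a high-affinity transporter gene, had 6.53, 6.37 and 6.43 CPM in ASK1-MKI and 8.38, 8.65 and 9.03 CPM in control cultures (−0.43 ± 0.12). In the NFATc3-MKI set Slc2a1 was at 224, 185 and 226 CPM in NFATc3-MKI and 189, 241 and 184 CPM in control cultures, and the groups overlapped (0.05 ± 0.10, edgeR adjusted p = 0.762). The difference between the 2 knock-ins was not tested, since their tables were made separately. Hk3 was the member that rose in both: 272, 244 and 297 CPM in NFATc3-MKI cultures against 144, 167 and 128 CPM in their controls (log2 change 0.89 ± 0.10), and 405, 409 and 421 CPM in ASK1-MKI cultures against 325, 320 and 317 CPM (0.36 ± 0.02). It encodes a hexokinase found mainly in myeloid cells, and neither set of values overlapped. Hk1 and Hk2 fell slightly in ASK1-MKI cultures, Hk1 with 122, 125 and 121 CPM against 136, 134 and 131 CPM, and Hk2 with 191, 188 and 183 CPM against 201, 204 and 201 CPM. These changes, −0.12 and −0.11, are the smallest that were called among the members.

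At the next step, Gpi1 (glucose-6-phosphate isomerase) had 1220, 1010 and 1110 CPM in NFATc3-MKI cultures and 1700, 1470 and 1600 CPM in their controls. In the other set it had 404, 409 and 385 CPM in ASK1-MKI cultures and 547, 548 and 559 CPM in their controls. The log2 changes were of like size, −0.51 ± 0.09 and −0.47 ± 0.02, with no overlap in either. The phosphofructokinase genes did not move together: Pfkm fell in NFATc3-MKI cultures, with 57.8, 45.5 and 50.9 CPM against 77.8, 75.7 and 87 CPM (−0.64 ± 0.10), and was not called in ASK1-MKI cultures (0.05 ± 0.08). Pfkp and Pfkl fell in ASK1-MKI cultures, Pfkp with 64.9, 65.9 and 65 CPM against 107, 107 and 101 CPM (−0.69 ± 0.04), and Pfkl with 123, 121 and 114 CPM against 149, 147 and 154 CPM (−0.33 ± 0.03). In NFATc3-MKI cultures the log2 change was −0.21 ± 0.09 for Pfkp (edgeR adjusted p = 0.0583) and −0.10 ± 0.11 for Pfkl (0.506).

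Pfkfb3, whose protein favours making the activator fructose-2,6-bisphosphate, had 93.3, 91.5 and 96.6 CPM in NFATc3-MKI cultures and 150, 147 and 137 CPM in their controls. In ASK1-MKI cultures it had 172, 167 and 164 CPM, against 252, 257 and 249 CPM in theirs. These are folds of 0.649 and 0.664. Pfkfb2, the heart form, had 11.9, 11.4 and 10.9 CPM in NFATc3-MKI and 19.4, 23.9 and 19.3 CPM in control cultures (−0.88 ± 0.15), and 12.5, 12.4 and 14 CPM in ASK1-MKI and 14.2, 17.9 and 14.4 CPM in control cultures (−0.25 ± 0.09). The second of these calls rested on single libraries: it was lost without control replicate 2 (−0.14, edgeR adjusted p = 0.266), ASK1-MKI replicate 1 (0.0529) or ASK1-MKI replicate 2 (0.0699), and with DESeq2 (0.0752). Pfkfb4 rose in ASK1-MKI cultures, with 45.1, 47.6 and 49.2 CPM against 38.8, 38.4 and 39.4 CPM (0.28 ± 0.05).

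In the later steps of the pathway, Pgk1 (phosphoglycerate kinase, the first step of glycolysis to make ATP) had 1730, 1510 and 1700 CPM in NFATc3-MKI cultures and 2190, 2090 and 2140 CPM in control cultures (log2 change −0.38 ± 0.09, edgeR adjusted p = 0.00221). In ASK1-MKI cultures it had 633, 637 and 626 CPM, against 1070, 1050 and 1080 CPM (−0.76 ± 0.02, edgeR adjusted p = 5.25e-68). Neither pair of groups overlapped. Pgam1 (phosphoglycerate mutase) had 553, 500 and 564 CPM in NFATc3-MKI and 667, 699 and 701 CPM in control cultures (−0.35 ± 0.09), and 388, 406 and 366 CPM in ASK1-MKI and 549, 542 and 563 CPM in control cultures (−0.51 ± 0.02). Eno2, the enolase gene of neurons, fell most in NFATc3-MKI cultures, with 206, 153 and 145 CPM against 436, 389 and 371 CPM (−1.25 ± 0.11, edgeR adjusted p = 3.84e-08), and had 11.7, 12.3 and 12.9 CPM in ASK1-MKI and 17.4, 18.5 and 17.3 CPM in control cultures (−0.52 ± 0.09).

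The aldolase genes fell in both sets. Aldoa had 2520, 2170 and 2410 CPM in NFATc3-MKI cultures and 2920, 2820 and 2900 CPM in their controls, and 1090, 1110 and 1100 CPM in ASK1-MKI cultures and 1330, 1300 and 1360 CPM in theirs. Both log2 changes were −0.28. For NFATc3-MKI the call on Aldoa was lost without NFATc3-MKI replicate 2 (edgeR adjusted p = 0.053) or 3 (0.0629) or control replicate 3 (0.0808). Aldoc had 88.6, 79.3 and 86.9 CPM in NFATc3-MKI and 125, 136 and 132 CPM in control cultures (−0.62 ± 0.09), and 16.5, 15.8 and 17.4 CPM in ASK1-MKI and 20.6, 18.8 and 18.7 CPM in control cultures (−0.23 ± 0.08). For ASK1-MKI the call on Aldoc did not hold in DESeq2 (adjusted p = 0.059) or, in edgeR, without ASK1-MKI replicate 2 (0.0748) or control replicate 1 (0.0919).

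Tpi1 (triosephosphate isomerase) and Eno1 were called in ASK1-MKI cultures alone, and that difference between the sets was not tested. Tpi1 had 415, 416 and 404 CPM in ASK1-MKI and 565, 550 and 535 CPM in control cultures (−0.42 ± 0.02). Eno1 had 785, 805 and 783 CPM in ASK1-MKI and 985, 962 and 970 CPM in control cultures (−0.30 ± 0.02), and summed with its copy Eno1b it averaged 805 ± 11.7 and 990 ± 12.4 CPM (SD, n = 3 each). In the NFATc3-MKI set that sum was 2200 ± 46.6 CPM in NFATc3-MKI and 2220 ± 104 CPM in control cultures. Pkm, the most abundant member per length in the NFATc3-MKI set, was not called in either: it had 6450, 5420 and 6490 CPM in NFATc3-MKI and 6900, 6780 and 6770 CPM in control cultures (−0.16 ± 0.10), and 2020, 2030 and 2050 CPM in ASK1-MKI and 2000, 2000 and 2030 CPM in control cultures (0.02 ± 0.02). Gapdh, which is often taken as a constant standard, had log2 changes of −0.16 ± 0.09 in NFATc3-MKI (edgeR adjusted p = 0.2) and −0.31 ± 0.10 in ASK1-MKI cultures (0.053), and was not called.

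Pdk1 and Pcx, which both act around pyruvate, were lower in both sets. Pdk1, the gene of a kinase that shuts off pyruvate dehydrogenase, had 47.9, 60.3 and 43.8 CPM in NFATc3-MKI cultures and 93.2, 72.7 and 91.4 CPM in control cultures (log2 change −0.76 ± 0.12, edgeR adjusted p = 4e-05). It had 42, 41.9 and 41.4 CPM in ASK1-MKI cultures and 89.4, 90.9 and 90.7 CPM in theirs (−1.11 ± 0.04, edgeR adjusted p = 6.49e-49). Pcx, which carboxylates pyruvate to oxaloacetate, had 15.7, 13.6 and 16.3 CPM in NFATc3-MKI and 24.2, 31.6 and 27.9 CPM in control cultures (−0.88 ± 0.14). In the other set it had 12.9, 10 and 11.9 CPM in ASK1-MKI and 23.2, 21.7 and 24.2 CPM in control cultures (−0.99 ± 0.08). For both genes no knock-in culture reached its lowest control.

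Of the 4 lactate and monocarboxylate genes, Slc16a3, Ldha and Slc16a1 fell and Ldhb rose in ASK1-MKI cultures. In NFATc3-MKI cultures those 3 were not called and Ldhb was too low to test, and the difference between the sets was not tested. Slc16a3 had 62.5, 63.3 and 66.9 CPM in ASK1-MKI cultures and 151, 154 and 154 CPM in their controls, a fold of 0.42 and the largest change among the members there (−1.25 ± 0.04, edgeR adjusted p = 5.39e-64). In the NFATc3-MKI set it had 114, 75.3 and 135 CPM in NFATc3-MKI and 91, 126 and 99.4 CPM in control cultures, which overlap (0.03 ± 0.24). Ldha (lactate dehydrogenase A) had 490, 503 and 473 CPM in ASK1-MKI and 713, 700 and 739 CPM in control cultures (−0.55 ± 0.02), and 1420, 1280 and 1490 CPM in NFATc3-MKI and 1440, 1440 and 1460 CPM in control cultures (−0.05 ± 0.09). Slc16a1, another lactate transporter gene, had 23.6, 21.5 and 25 CPM in ASK1-MKI and 32.1, 33.5 and 35.6 CPM in control cultures (−0.53 ± 0.07). Ldhb, whose enzyme favours the step from lactate to pyruvate, rose, with 33.1, 32.6 and 33.7 CPM in ASK1-MKI and 29.1, 29.3 and 28.2 CPM in control cultures (0.20 ± 0.06).

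**Figure D4:**
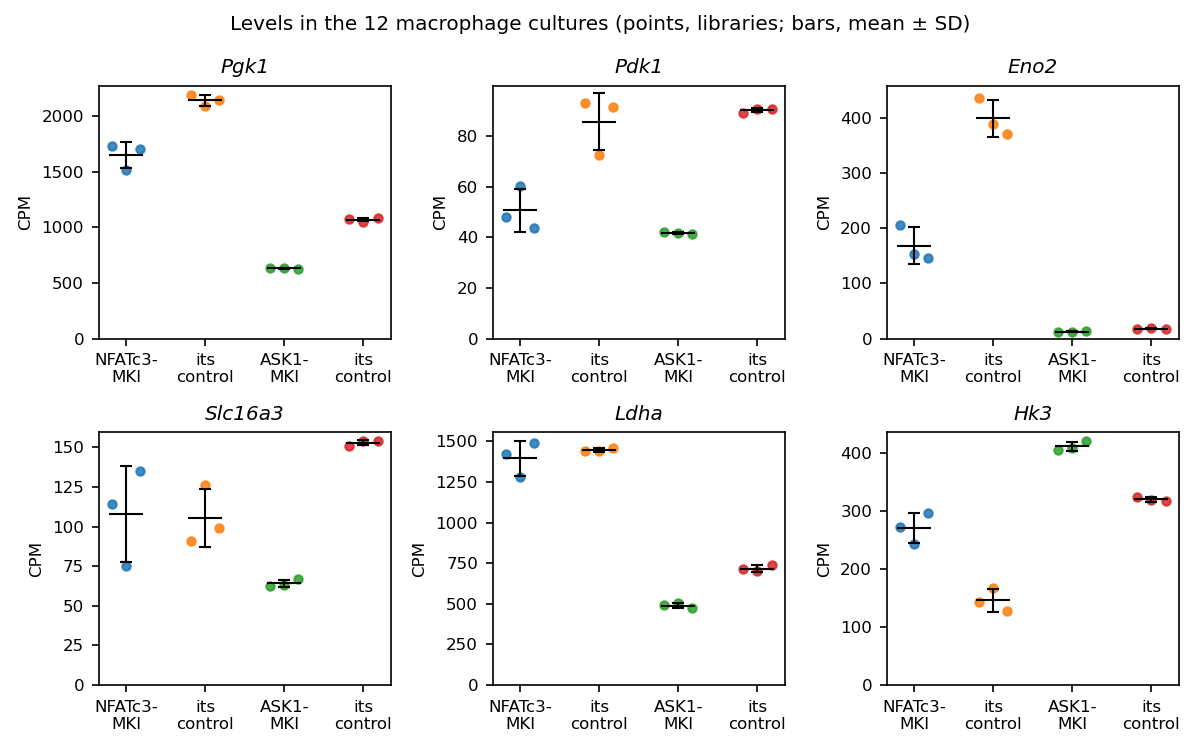
Level in CPM of Pgk1, Pdk1, Eno2, Slc16a3, Ldha and Hk3 in each of the 12 cultures (points), with mean ± SD (bars, n = 3), each knock-in left of its own controls. Pdk1 and Pgk1 lie lower in both knock-ins than in their controls, Slc16a3 and Ldha lie lower in ASK1-MKI only, and Hk3 lies higher in both.

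Several of these genes are known HIF-1 targets, so the change was set beside 15 hypoxia-inducible genes outside glycolysis and beside regulators of the pathway. HIF-1 activity was not measured, and its part in the members' values was not tested. In NFATc3-MKI cultures 11 of 13 tested hypoxia-inducible genes fell and none rose, where 16.8% of all genes fell, with a median log2 change of −0.74. In ASK1-MKI cultures 10 of 12 fell and none rose, where 24.5% of all genes fell. The list was chosen with earlier results of these data known, so these counts are a description and not independent support. Vegfa, the angiogenic growth factor, had 81.5 ± 2.3 CPM in NFATc3-MKI cultures and 136 ± 19.1 CPM in their controls (−0.74 ± 0.10, edgeR adjusted p = 3.29e-06). It had 17 ± 0.44 CPM in ASK1-MKI cultures and 63.7 ± 1.69 CPM in theirs (SD, n = 3 each; −1.90 ± 0.06, edgeR adjusted p = 1.33e-60). Bnip3, a mitophagy receptor gene, fell by 1.26 ± 0.10 and 1.49 ± 0.07 in NFATc3-MKI and ASK1-MKI cultures, and Ankrd37 by 1.70 ± 0.23 and 2.86 ± 0.18. Car9, a classical hypoxia marker, was not called in either set.

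Egln1, itself induced by HIF-1, fell by 1.21 ± 0.12 in NFATc3-MKI and 0.77 ± 0.05 in ASK1-MKI cultures. Egln3 fell to 3.18 ± 0.197 CPM in ASK1-MKI cultures, against 29.7 ± 1.04 CPM in their controls (−3.22 ± 0.10), and had no count in the NFATc3-MKI set. Hif1a, which encodes the regulated subunit of HIF-1, had 137 ± 5.16 CPM in ASK1-MKI and 212 ± 5.45 CPM in control cultures (−0.63 ± 0.03, edgeR adjusted p = 1.83e-41). In the NFATc3-MKI set it had 272 ± 22.1 CPM in NFATc3-MKI and 285 ± 11.1 CPM in control cultures (−0.07 ± 0.08, edgeR adjusted p = 0.575). Epas1 rose by 0.80 and Myc fell by 0.56 in ASK1-MKI cultures. In all, 2 of 17 tested regulators rose and 6 fell in NFATc3-MKI cultures, where 16.5% of all genes rose and 16.8% fell. Of 21 tested in ASK1-MKI cultures, 3 rose and 9 fell, where 24.6% of all genes rose and 24.5% fell.

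Of the further pathway genes tested, 7 of 37 rose and 6 fell in NFATc3-MKI cultures, where 16.5% of all genes rose and 16.8% fell. In ASK1-MKI cultures 10 of 38 rose and 5 fell, where 24.6% and 24.5% did. At the limit of 0.5 on the log2 scale, 2 rose and 3 fell in NFATc3-MKI cultures, and 0 rose and 2 fell in ASK1-MKI cultures. The difference from the members was not tested. Bsg, whose protein brings the lactate transporters to the cell surface, fell by 0.56 and 0.30 in NFATc3-MKI and ASK1-MKI cultures, and Pgm1 (phosphoglucomutase, which joins glycogen to glycolysis) by 0.43 and 0.68. In NFATc3-MKI cultures Pdp2, a phosphatase that reactivates pyruvate dehydrogenase, fell by 0.93, and Pck2, the mitochondrial PEPCK gene, and Gpt2, an alanine transaminase gene, each rose by 0.63. In ASK1-MKI cultures the mitochondrial glycerol phosphate dehydrogenase gene Gpd2 fell by 0.63, and genes around the pyruvate dehydrogenase complex and malate shuttle rose by less, Dlat by 0.20, Mdh1 by 0.18 and Mdh2 by 0.16. In the livers 2 of 12 hypoxia-inducible genes were called higher in NFATc3-MKO (Ndrg1 by 0.60 and Kdm3a by 0.78, where 3.77% of all genes rose) and 1 of 12 in ASK1-MKO livers (Kdm3a by 1.15, where 4.46% rose). None was called lower, though the median over the 12 in NFATc3-MKO livers was −0.03 and Ddit4 stood at −1.26 (edgeR adjusted p = 0.102).

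Markers of other cells moved with the ASK1-MKI comparison. Neutrophil markers summed to 158 to 166 CPM in ASK1-MKI cultures and 1060 to 1120 CPM in their controls, with 4 of 4 tested called lower and Ly6g at 0.0193 and 0 CPM on average. Kupffer cell markers summed to 49.5 to 51.7 CPM in ASK1-MKI and 149 to 152 CPM in control cultures, with Clec4f at 0 in all. In the NFATc3-MKI set the neutrophil sum was at 0 in NFATc3-MKI cultures and at most 0.116 CPM in controls, while Spp1 dominated markers of monocyte-derived or lipid-associated macrophages, which summed to 18000 to 22700 CPM in NFATc3-MKI and 4920 to 5550 CPM in control cultures. Adipocyte markers summed to 55.8 to 61.7 CPM in NFATc3-MKI and 3.53 to 5.59 CPM in control cultures, with the 1 tested of 3 called higher. Libraries within the ASK1-MKI groups differed little more than by sampling (chi-square per degree of freedom of 1.59 to 1.99, against 2.82 to 8.94 in the NFATc3-MKI set), so changes as small as −0.11 passed there. The part of these markers in the members' values was not tested.

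**Figure D5:**
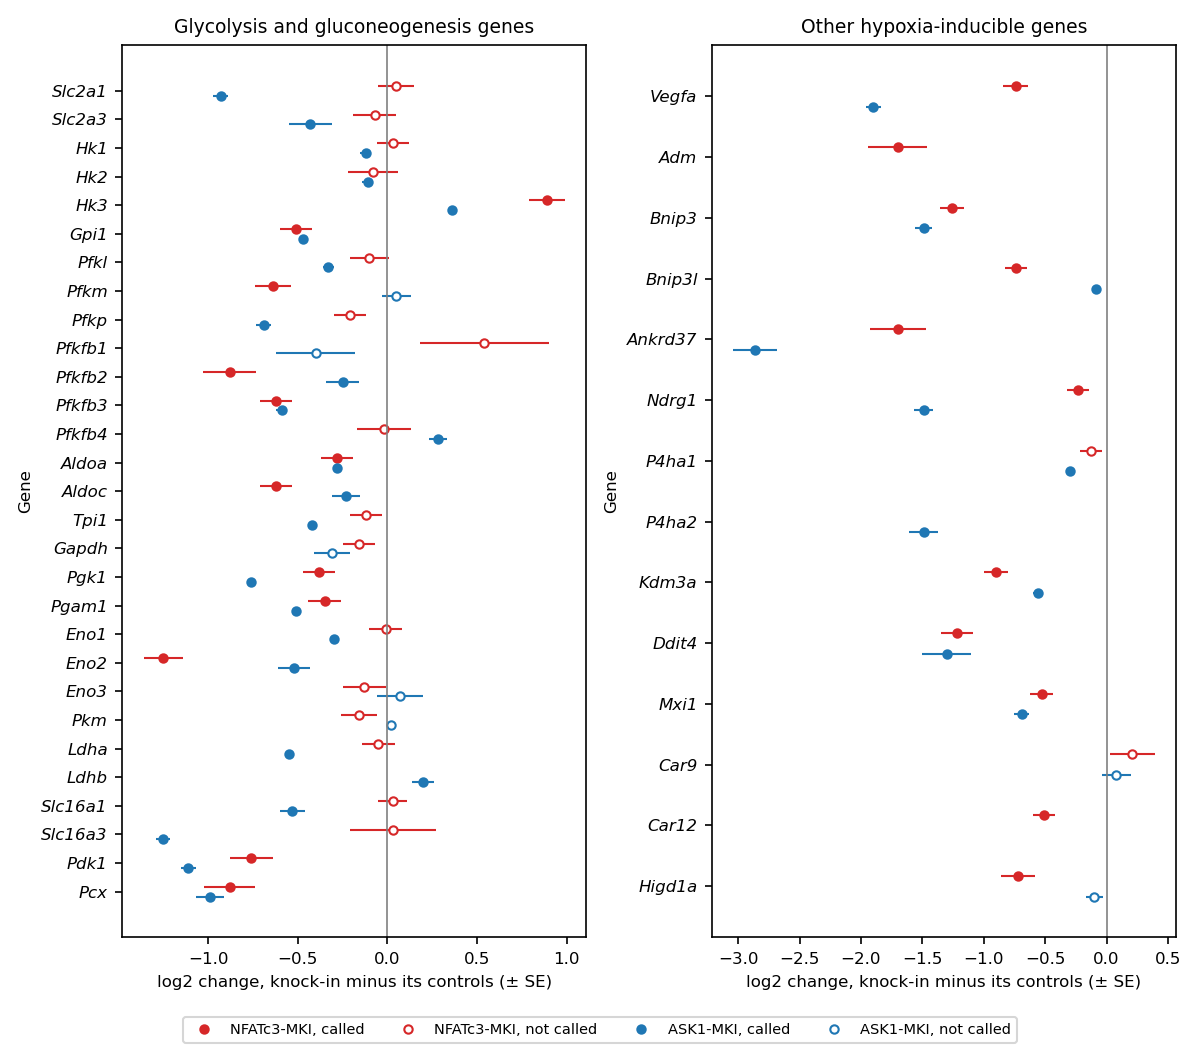
Log2 change (± SE) of the tested members (left) and of the hypoxia-inducible genes outside glycolysis (right) in NFATc3-MKI cultures (red) and ASK1-MKI cultures (blue), each minus its own controls; filled points have edgeR adjusted p under 0.05. Most filled points lie left of 0 in both panels, with Hk3 the member to the right of 0 in both cultures.

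The promoters of members that fell in both cultures were searched for ACGTG and GCGTG, the core letters of the hypoxia response element, on both strands. Among 53 RefSeq promoters of 33 members (Slc2a3 had none in the table), 66.0% hold at least 1 match, against 43.8% of all 32851 promoters of the same length. Of the 10 genes lower in both cultures, 8 had a match in at least 1 of their promoters. The like share per gene was not computed over all members or all genes. Over the 18 promoters of these 10 genes the share was 72.2%, the same as for the 18 promoters of the hypoxia-inducible list. A gene with several starts counts more than once in such shares. Hk3, Pfkfb4 and Ldhb, which rose in ASK1-MKI cultures, also have a match, so matches were not particular to genes that fell. ACGTG alone was in 39.6% of the members' promoters, 55.6% of those of the 10 genes, 61.1% of those of the hypoxia-inducible list and 19.6% of all. The E-box CACGTG contains ACGTG on both strands and was in 11.3% of the members' promoters and 7.15% of all. TGACGT was in 11.3% of the members' promoters, 5.56% of those of the 10 genes and 7.51% of all. The promoters compared were not matched for base composition or expression, and the differences in share were not tested. A match is a description of the letters and not a site shown to be bound.

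Promoters are printed for Pgk1, Pgam1 and Pdk1, which fell in both cultures, and for Ldha, which fell in ASK1-MKI cultures (RefSeq, GRCm38.p6, 250 bases before the start to 50 after it, 5′ to 3′ on the gene's strand). Pdk1 and Ldha each have another start in the table, and the start shown is the first along the chromosome. The windows are Pgk1 at chrX:106186850-106187149, Pgam1 at chr19:41911621-41911920, Pdk1 at chr2:71872974-71873273 and Ldha at chr7:46845554-46845853, all on the plus strand. Capitals mark ACGTG or GCGTG on either strand, so that a match on the minus strand reads CACGT or CACGC, and CACGTG is a match on both.
Pgk1: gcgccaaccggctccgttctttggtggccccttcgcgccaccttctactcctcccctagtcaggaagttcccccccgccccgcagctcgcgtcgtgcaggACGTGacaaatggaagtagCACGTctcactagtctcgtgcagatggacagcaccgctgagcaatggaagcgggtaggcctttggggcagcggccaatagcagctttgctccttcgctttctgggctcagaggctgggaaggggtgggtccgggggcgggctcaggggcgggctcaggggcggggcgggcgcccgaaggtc
Pgam1: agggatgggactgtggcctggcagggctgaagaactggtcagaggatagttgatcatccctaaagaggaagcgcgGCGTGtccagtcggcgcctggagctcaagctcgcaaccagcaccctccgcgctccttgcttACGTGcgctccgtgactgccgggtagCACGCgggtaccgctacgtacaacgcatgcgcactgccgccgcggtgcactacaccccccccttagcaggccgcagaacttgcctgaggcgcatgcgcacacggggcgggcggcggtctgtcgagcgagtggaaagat
Pdk1: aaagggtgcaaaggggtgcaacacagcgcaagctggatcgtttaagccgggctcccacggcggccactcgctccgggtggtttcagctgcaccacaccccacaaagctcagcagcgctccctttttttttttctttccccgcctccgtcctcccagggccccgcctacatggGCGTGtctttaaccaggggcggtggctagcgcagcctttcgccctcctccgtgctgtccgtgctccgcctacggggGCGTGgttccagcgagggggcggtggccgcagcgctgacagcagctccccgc
Ldha: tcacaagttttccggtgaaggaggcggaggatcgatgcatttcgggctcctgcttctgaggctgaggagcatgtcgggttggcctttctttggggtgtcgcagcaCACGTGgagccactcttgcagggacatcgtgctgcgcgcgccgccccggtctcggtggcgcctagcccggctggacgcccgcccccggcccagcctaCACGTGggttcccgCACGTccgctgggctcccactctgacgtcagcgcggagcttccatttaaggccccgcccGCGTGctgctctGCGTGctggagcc

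Pgk1 has 2 matches, which start 150 and 131 bases before the transcription start on opposite strands. Pgam1 has 3, at 175, 114 and 88 bases before it. Pdk1 has 2 GCGTG, at 78 and 2 bases before it. Ldha has 7, of which 4 come from its 2 CACGTG. Eno2 and Gpi1, which also fell in both cultures, have none in their windows, and no match says only that these letters are absent from these bases.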

How the data were processed

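Poly-A RNA of 16 livers and 12 macrophage cultures was made into stranded libraries with the dUTP method, per the labels' protocols, and HISAT2 and the mm10 build are named in the submitters' processing notes. Not given in the sources used here are the counting tool, the gene models and the use of strand. The liver table as deposited by the authors holds expected counts for 17752 symbols, of which 85.42% of values were whole, and these were rounded to whole numbers. The 2 culture tables as deposited hold whole-number counts for 56748 (NFATc3-MKI set) and 21959 (ASK1-MKI set) Ensembl identifiers. Names, lengths and coordinates came from GENCODE M21, which matched 16815, 52073 and 21851 features. Aldoa was taken by identifier, since 2 identifiers share the symbol.

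Genes were kept with edgeR's filterByExpr (13309, 13363 and 11380 genes) and scaled with TMM factors. They were tested with edgeR 4.0.16 in R 4.3.3 by the robust quasi-likelihood F-test, with all 16 livers in a single fit and each culture table alone, and p-values were adjusted by Benjamini-Hochberg over all genes. A gene was called at an adjusted p under 0.05. CPM and TPM were computed from the counts. The method was tested on simulated data. The alternatives were DESeq2 1.42.0 (its test and its size factors), limma 3.58.1 (voom with quality weights), leaving genes unfiltered, a filter at a mean of 1 CPM, fits of just the compared pair of groups, a block for the replicate number, and leaving out libraries in turn. A pair fit with the block (MDKO and Lyz2-Cre livers), the sum of Eno1 and Eno1b, and the limit of 0.5 on the log2 scale were added after seeing the data.

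The members and the gene lists were chosen with earlier results of these data known. Values were printed per library for every member called against its controls and for the most abundant member of each role. Groups came from the labels. Same-numbered MDKO and Lyz2-Cre livers deviated together (0.64, 0.60, 0.40 and 0.33 across genes), so their numbers pair them by the data. For no other pair of groups did every number do so. Replicates 2 of Lyz2-Cre and NFATc3-MKO livers also deviated together (0.62), but their replicates 1, 3 and 4 were at 0.22, −0.25 and −0.01. The part of this in the NFATc3-MKO calls was not tested. Promoters are RefSeq's (GRCm38.p6). The depth and the 3 to 4 libraries per group limit the precision of each value, and limits from a count of 0 cover counting error only. Some further pathway genes that were tested and counted are not reported here by name.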

Additional observations from a re-analysis of the deposited data

Results flagged for a closer look

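In 5 of 132 groups of 4 livers, 1 library lay apart from the other 3 by more than Dixon's critical value for the gap over the group's range, a share that chance alone can give. The gap and range were taken on the log2 scale after adding 0.5 CPM, while the levels are printed in CPM. Pfkp was at 2.84 CPM in ASK1-MKO replicate 4 and at 4.33 to 4.69 CPM in the other ASK1-MKO livers (gap over range 0.838). Pcx was at 318 CPM in ASK1-MKO replicate 3 and at 377 to 384 CPM in the others (0.912). Aldoa was at 232 CPM in NFATc3-MKO replicate 3 and at 140 to 145 CPM in the others (0.929). Pfkl was at 36 CPM in Lyz2-Cre replicate 1 and at 27.1 to 27.9 CPM in the others (0.896), and Pdk1 at 68 CPM in Lyz2-Cre replicate 2 and at 91.9 to 97.3 CPM in the others (0.838).

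The interaction term of the 4 liver groups as labelled was called for 7 of 33 members in edgeR, where 16.2% of all genes were called. The RNA of the targeted genes did not follow those labels, though whole-liver RNA cannot check a deletion in myeloid cells. The calls on Aldoc, Fbp1 and Slc2a1 did not hold with single livers left out. With no member called between MDKO and Lyz2-Cre livers, the called values are mainly the single-knockout changes with the sign turned. The log2 values were 0.95 for Pfkfb1 (adjusted p = 0.0188), 1.12 for Aldoc (0.0286), 0.73 for Tpi1 (0.0179), 0.69 for Pgk1 (0.0124), 0.95 for Eno1 (0.00917), 1.05 for Fbp1 (0.0477) and −0.72 for Slc2a1 (0.0468).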

How the results depend on the processing

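No single-gene call of a member changed direction in any alternative, and 119 of 978 gene values lost the threshold. Called members in NFATc3-MKO against Lyz2-Cre livers numbered 3, but 7 with DESeq2, 7 with voom, 7 with the replicate block and 0 with only the 2 groups. In ASK1-MKO against Lyz2-Cre livers 3 became 6 with DESeq2, 9 with voom, 7 with the replicate block and 5 with only the 2 groups. In MDKO against ASK1-MKO livers 3 became 8 with voom, 5 with the replicate block and 6 with only the 2 groups. With only the 2 groups, MDKO against NFATc3-MKO livers had 0 in place of 4, and NFATc3-MKO against ASK1-MKO livers 4 in place of 9. The block gave 5 and 12 in those, 9 for the interaction, 0 for MDKO against Lyz2-Cre livers, 12 for NFATc3-MKI and 25 for ASK1-MKI cultures. Only MDKO and Lyz2-Cre livers were paired by every number. The cause of these moves was not tested. Calls over all genes moved too: in NFATc3-MKO against Lyz2-Cre livers they numbered 1124, but 1719 with DESeq2, 2613 with voom, 1543 with the block and 218 with only the 2 groups.

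Leaving out each library in turn gave 0 to 6 called members in NFATc3-MKO against Lyz2-Cre livers (0 without Lyz2-Cre replicate 3, 1 without Lyz2-Cre replicate 4, 5 without NFATc3-MKO replicate 4 and 6 without Lyz2-Cre replicate 2). It gave 2 to 5 in ASK1-MKO against Lyz2-Cre livers (5 without Lyz2-Cre replicate 2), 0 in MDKO against Lyz2-Cre livers, 2 to 3 in MDKO against ASK1-MKO livers, and 0 to 6 in MDKO against NFATc3-MKO livers (0 without MDKO replicate 3, 1 without MDKO replicate 4 or NFATc3-MKO replicate 3, and 2 without NFATc3-MKO replicate 2). The range was 4 to 11 in NFATc3-MKO against ASK1-MKO livers (4 without ASK1-MKO replicate 3, and 5 without NFATc3-MKO replicates 2 or 3 or ASK1-MKO replicates 1 or 2). It was 4 to 8 for the interaction (4 without Lyz2-Cre replicate 1, ASK1-MKO replicate 3, or MDKO replicates 1 or 3), 11 to 12 in NFATc3-MKI cultures and 23 to 25 in ASK1-MKI cultures. Over all genes the calls ran from 268 (without Lyz2-Cre replicate 3) to 1585 (without NFATc3-MKO replicate 1) in NFATc3-MKO against Lyz2-Cre livers, and from 335 (without MDKO replicate 3) to 1423 (without NFATc3-MKO replicate 1) in MDKO against NFATc3-MKO livers. Calls kept in every alternative were 22 of 24 in ASK1-MKI cultures, 11 of 12 in NFATc3-MKI cultures and 0 of 3 in NFATc3-MKO against Lyz2-Cre livers. Eno2 in liver, and 6 and 5 members in the NFATc3-MKI and ASK1-MKI sets, had too few counts to test.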
